A study of Homo sapiens with 6 samples.

Results

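The human mitochondrial genome carries its own small set of genes, and every one of them is a row of the count table. All rows whose symbol starts with MT- were taken, which gave 37 of 60591 rows: 13 mRNAs, 2 rRNAs and 22 tRNAs. The rule rests on the symbol and uses no measured value, but the set was chosen with earlier results of these data known.

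RNA was sequenced from MDA-MB-231 cells of a bone-homing variant, held in a 3D loading model of bone metastasis. MDA-MB-231 is an established human breast cancer line that lacks oestrogen and progesterone receptors. The cells were static, with no flow (0 mL/min), or were sheared by fluid at a low flow of 1 mL/min or a high flow of 15 mL/min, with 2 libraries for each condition. All 3 groups share the line and the bone-homing genotype label, and no other allele or agent is named. RNA was extracted with TRIzol and polyadenylated RNA was made into stranded libraries.

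Mitochondrial DNA is transcribed from both strands as long polycistronic RNAs. The H transcript, copied from the heavy strand, carries both rRNAs, most tRNAs and all mRNAs but one, and the L transcript carries MT-ND6 and the remaining tRNAs. Most mRNAs and rRNAs are flanked by tRNAs, whose excision by RNase P and ELAC2 releases them, and the products serve a single purpose: the mRNAs encode core subunits of the respiratory chain and the ATP synthase, and the rRNAs and tRNAs translate them on mitochondrial ribosomes.

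In the annotation used here, GENCODE 29 on GRCh38, 28 of the 37 genes lie on the H transcript, 14 of them tRNAs, and 9 on the L transcript, 8 of them tRNAs. Of the 36 neighbouring pairs along chromosome M, 25 abut or overlap. The tRNAs are 59 to 75 bases long, so a sequenced fragment can cover a tRNA together with its neighbour. A tRNA count in poly(A) libraries therefore need not be mature tRNA, and mature tRNA and unprocessed precursor cannot be told apart in these counts. The tRNAs on which the results below turn are printed as DNA, 5′ to 3′ on their own strand, from the GENCODE 29 transcripts, with the anticodon in capitals. MT-TF, MT-TV, MT-TI and MT-TM belong to the H transcript, and MT-TQ, MT-TC and MT-TY to the L transcript.

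MT-TF (chrM:577-647, plus strand): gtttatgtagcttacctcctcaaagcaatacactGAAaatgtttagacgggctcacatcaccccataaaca
MT-TV (chrM:1602-1670, plus strand): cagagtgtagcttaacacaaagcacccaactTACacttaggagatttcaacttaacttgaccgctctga
MT-TI (chrM:4263-4331, plus strand): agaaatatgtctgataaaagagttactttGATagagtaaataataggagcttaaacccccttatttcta
MT-TM (chrM:4402-4469, plus strand): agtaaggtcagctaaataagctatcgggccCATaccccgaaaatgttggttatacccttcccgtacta
MT-TQ (chrM:4329-4400, minus strand): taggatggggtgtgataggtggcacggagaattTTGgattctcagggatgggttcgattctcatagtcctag
MT-TC (chrM:5761-5826, minus strand): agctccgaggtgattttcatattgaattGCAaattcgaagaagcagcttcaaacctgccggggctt
MT-TY (chrM:5826-5891, minus strand): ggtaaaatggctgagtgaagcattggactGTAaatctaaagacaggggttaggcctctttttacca

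MT-TI and MT-TQ overlap by 3 bases on opposite strands. The genes of the L transcript lie opposite the H transcript, and the sources used here do not say whether reads were counted by strand.

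Totals ran from 17822642 to 53279537 counts a library, and the static libraries were the shallowest. The column names give both high flow libraries another lane label than the other 4, another range of sample numbers and another name ending. Lane, run or processing and high flow therefore cannot be told apart. The labels do not say that replicates were separate cultures, and p-values measure the spread between these libraries, which may be technical. In bulk RNA, fewer mitochondria per cell and less RNA per mitochondrion cannot be told apart. The libraries are labelled with a cell type that names endothelial cancer cells. The endothelial genes CDH5, VWF, CLDN5 and EMCN were at or below 0.22 CPM (counts scaled to library size) in all 6 libraries, while 4 of the 10 endothelial markers, PECAM1, TIE1, ESAM and ROBO4, were above 1 CPM in all of them. Of 8 markers listed for MDA-MB-231, 7 were above 1 CPM in every library, among them VIM at 3618 to 5031 CPM. The other, MSLN, was at or below 0.06 CPM. Of 3 receptor genes expected low, PGR was at 0, ESR1 at 0.09 to 0.39 CPM and ERBB2 at 49.6 to 68.5 CPM.

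The mitochondrially encoded genes took a share of each library that did not separate the groups. They held 7.03% and 10.4% of all counts in the static libraries, 9.40% and 6.61% in the low flow libraries, and 8.69% and 8.01% in the high flow libraries. The low flow libraries thus lay on both sides of the high flow libraries, and static spanned nearly the whole range. The mean was 8.01% ± 1.98 under low flow and 8.70% ± 2.37 in static (SD, n = 2 each; exact permutation test, two-sided p = 0.667). It was 8.35% ± 0.486 under high flow (SD, n = 2; exact permutation p = 1 against static and p = 1 against low flow). With 2 libraries a group the smallest p this test can give is 0.333, and counting error alone is far smaller: the exact binomial 95% interval of the second static library was 10.37% to 10.39%, and such intervals cover counting error only.

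Within these counts the balance between kinds of RNA did differ. The 2 rRNAs held 16.8% and 18.7% of the mitochondrially encoded counts in static, 21.5% and 21.1% under low flow, and 25.3% and 26.1% under high flow. The 22 tRNAs held 0.798% and 0.735% in static, 1.01% and 1.10% under low flow, and 1.18% and 1.45% under high flow. The 13 mRNAs made up the rest, with 82.5% and 80.6% in static, 77.5% and 77.8% under low flow, and 73.5% and 72.4% under high flow. For all 3 classes the groups did not overlap and kept the order of the flow rates, and each exact permutation p was 0.333, the smallest this design allows.

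**Figure D1:**
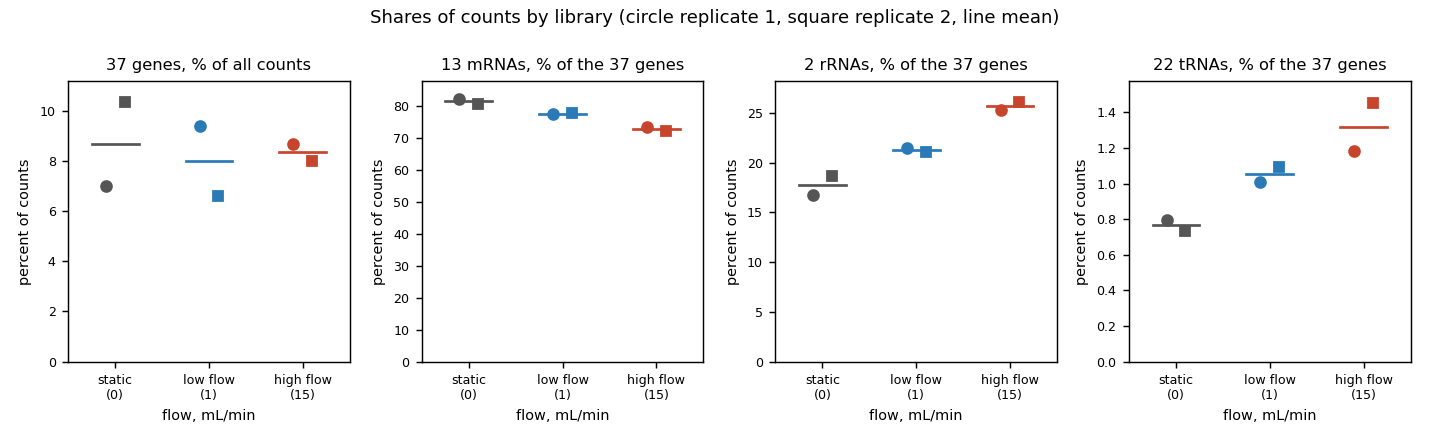
Percent of counts in each of the 6 libraries, by flow rate in mL/min: the 37 genes as a share of all counts, then the mRNAs, rRNAs and tRNAs as shares of the 37 genes. Points are libraries and lines are group means; the first panel shows overlapping groups, and the rRNA share lies at 16.8% and 18.7% in static, below both flow groups.

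The 13 mRNAs encode 7 subunits of complex I (NADH dehydrogenase), cytochrome b of complex III, 3 subunits of complex IV (cytochrome c oxidase) and 2 of complex V (ATP synthase). Each gene was tested with edgeR's quasi-likelihood test over all 20676 genes that passed the filter on low counts, with Benjamini-Hochberg adjusted p and a threshold of 0.05. None of the 13 passed in any of the 3 comparisons, and none had an unadjusted p under the same value. Over all genes tested 6.74% were called for low flow against static, 13.9% for high flow against static and 0.334% for high flow against low flow. An unadjusted p under 0.05 was found for 4853, 6074 and 1990 of the 20676 genes in the same order. DESeq2 also called no mRNA in any comparison, and without the filter on low counts MT-ND3 and MT-ND6 passed in both comparisons with static. The median log2 fold change of the 13 was -0.18 for low flow against static, -0.20 for high flow against static and 0.02 for high flow against low flow, beside 0.007, 0.002 and 0.006 over all genes.

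The second static library had the highest CPM of the 6 libraries in 11 of the 13 mRNAs, all but MT-ND3 and MT-ND6. MT-ATP6, a membrane subunit of the ATP synthase, had 7368 and 11530 CPM in static, 9404 and 6928 CPM under low flow, and 8462 and 7950 CPM under high flow. Here the second static library was the highest of the 6 and the first static library lay below both high flow libraries. MT-CO1, the catalytic core of cytochrome c oxidase, had 7052 and 9301 CPM in static, 8309 and 6098 CPM under low flow, and 6968 and 7518 CPM under high flow. MT-CYB, the only complex III subunit encoded in mitochondria, had 3468 and 5283 CPM in static, 4046 and 2839 CPM under low flow, and 3899 and 3175 CPM under high flow. The groups overlapped for each of these 3 genes. MT-ND2, a membrane subunit of complex I, had 5156 and 7565 CPM in static, 7390 and 4860 CPM under low flow, and 6953 and 5703 CPM under high flow. MT-CO2, which takes up electrons from cytochrome c, had 5008 and 6746 CPM in static, 6211 and 4458 CPM under low flow, and 5349 and 4749 CPM under high flow. In both genes the second static library again stood highest and the second low flow library lowest. Standard errors of the 13 log2 fold changes against static ran from 0.15 to 0.37, so differences of that size were not detectable.

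Per kilobase of gene length, MT-ATP8, a small ATP synthase subunit, had the highest mean level of the mRNAs in static at 26170 CPM per kilobase. MT-ATP6 followed at 13880 CPM per kilobase, and MT-ND6 had the lowest level at 261 CPM per kilobase. The level of MT-ATP8 is uncertain, because its last 46 bases are also the first 46 bases of MT-ATP6 in another reading frame. The printed ends show these shared bases in capitals.

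MT-ATP8 end (chrM:8511-8572, plus strand): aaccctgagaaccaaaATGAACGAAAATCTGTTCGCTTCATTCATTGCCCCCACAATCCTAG
MT-ATP6 start (chrM:8527-8588, plus strand): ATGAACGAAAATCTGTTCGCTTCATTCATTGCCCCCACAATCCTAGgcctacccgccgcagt

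The count of MT-ATP8 was 0.554 to 0.630 of the count of MT-ATP6 across the 6 libraries, while its length is 0.304 of that gene's. MT-ND4L and MT-ND4, subunits of complex I that also share a transcript, overlap by 7 bases, and their count ratio was 0.246 to 0.286 beside a length ratio of 0.215. How reads in shared bases were assigned was not tested.

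**Figure D2:**
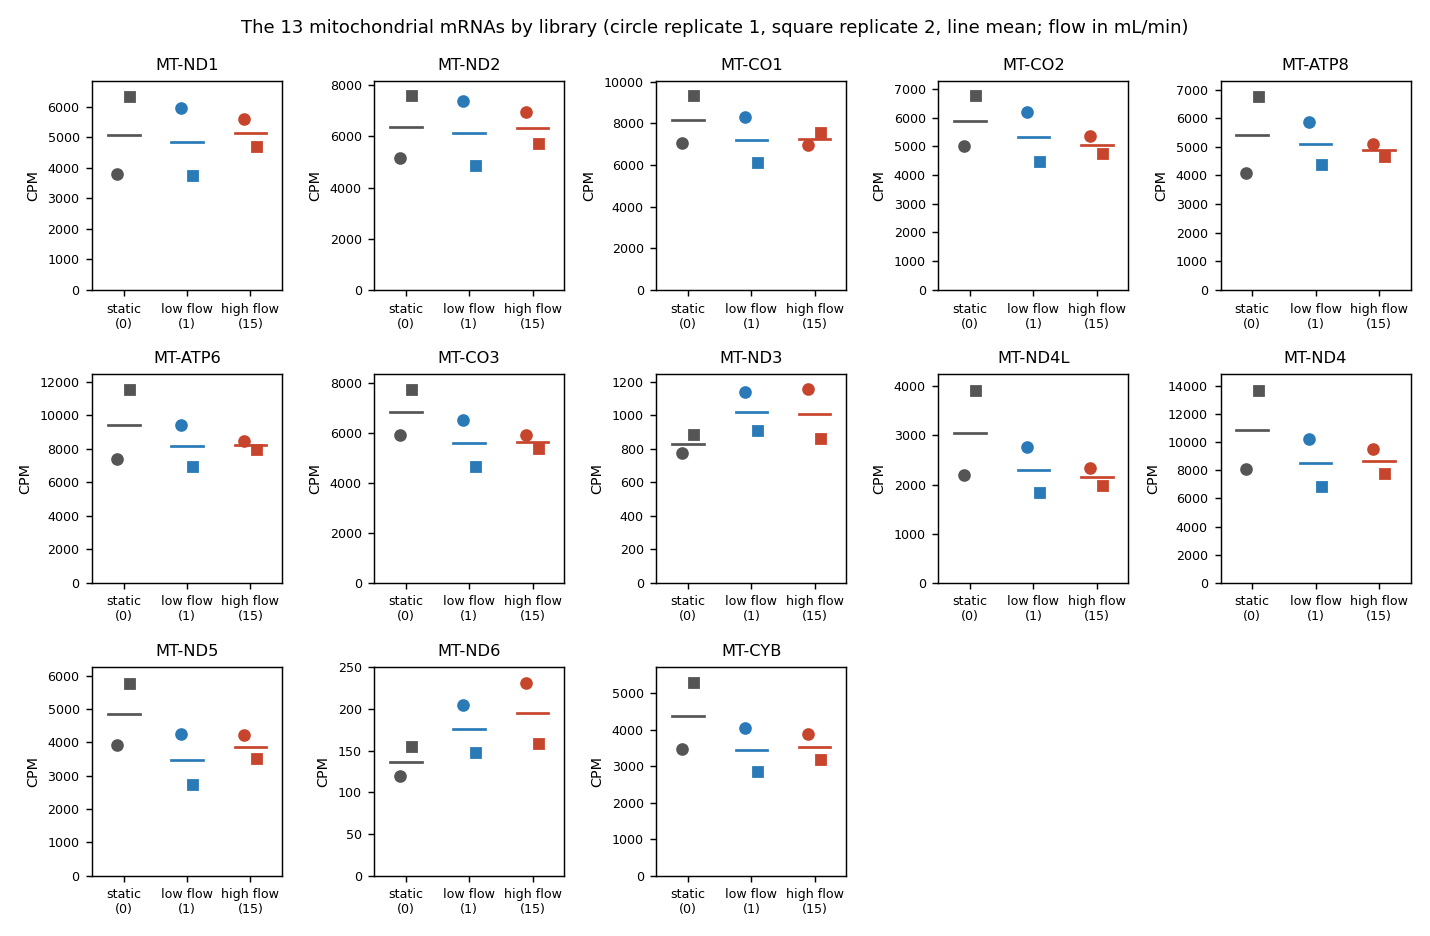
CPM of each of the 13 mRNAs in the 6 libraries, by flow rate in mL/min, with points for libraries and lines for group means. In MT-ATP6 the static libraries lie at 7368 and 11530 CPM and the 4 flow libraries between 6928 and 9404 CPM.

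The makeup of the mRNAs by complex differed little between groups for complexes I and IV. Complex I mRNAs held 42.2% and 44.7% of the mRNA counts in static, 44.2% and 41.7% under low flow, and 45.7% and 42.4% under high flow. Complex IV mRNAs held 31.6% and 27.8% in static, 29.1% and 30.2% under low flow, and 27.7% and 30.4% under high flow. The groups overlapped for both. Complex III, which is MT-CYB alone, held 5.60% and 5.64% under low flow and 5.93% and 5.47% under high flow, against 6.09% and 6.17% in static. Both flow groups thus lay below static for MT-CYB as a share of mRNA counts, by 0.512 and 0.429 percentage points on average (exact permutation p = 0.333 for each, the smallest possible). Relative to the 13 mRNAs, in the fit described below, MT-CYB did not pass (edgeR adjusted p = 0.49 and 0.529). On that scale 8 of the 13 mRNAs did not overlap static under low flow, and 7 under high flow. With every gene tested scaled in that way, 3630 and 6784 of 20676 genes did not overlap static.

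**Figure D3:**
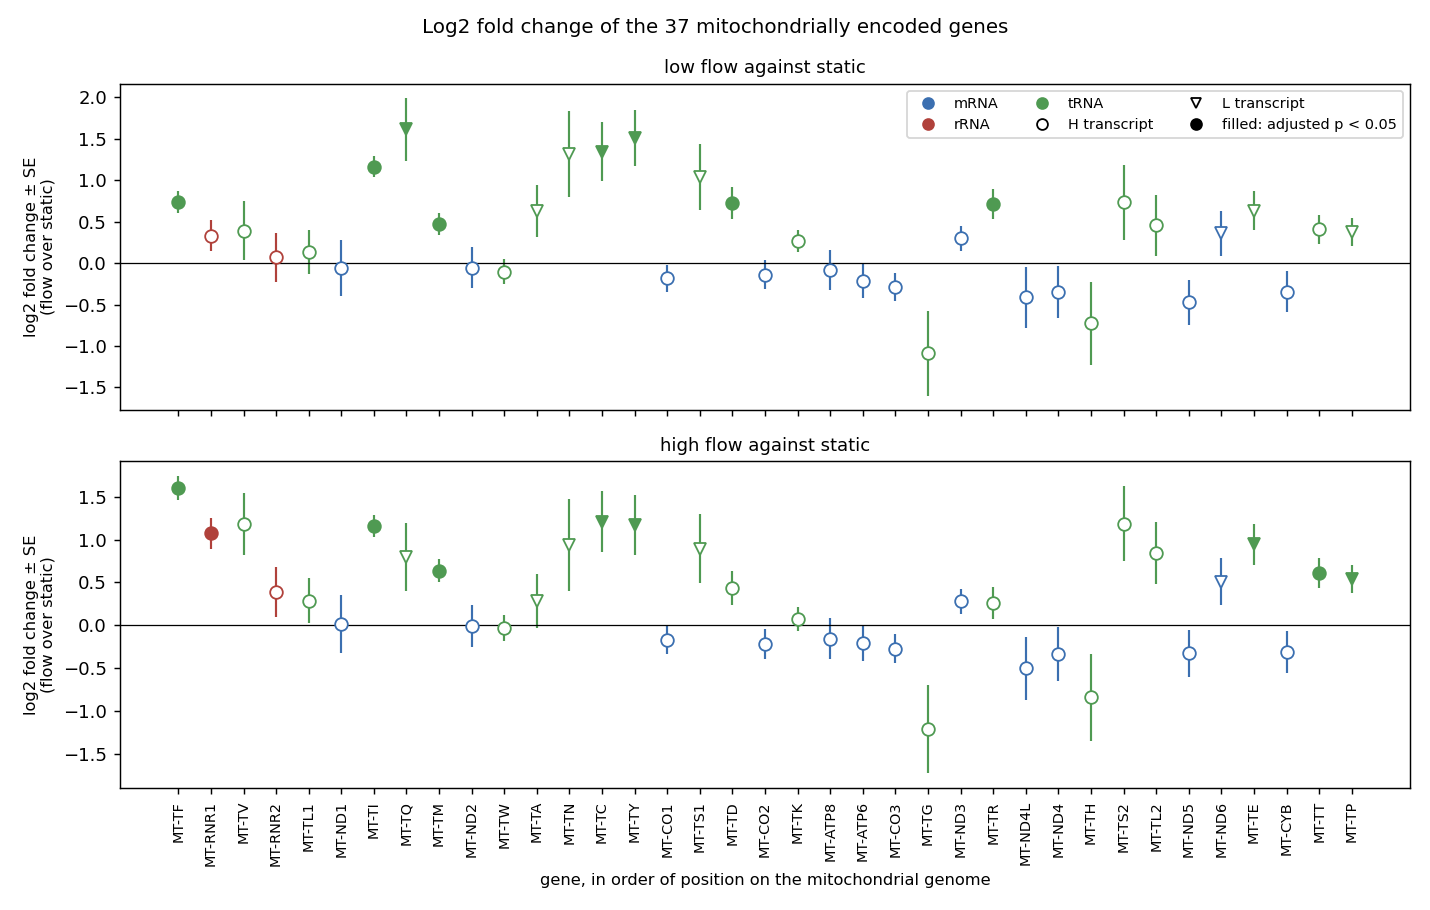
Log2 fold change with its standard error for the 37 genes in genome order, low flow against static above and high flow against static below. Colour gives the RNA class, triangles mark the L transcript and filled symbols passed the threshold: 8 genes under low flow and 9 under high flow, all higher and none of them an mRNA.

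Under low flow 8 of the 37 genes were higher than in static and none was lower, and all 8 were tRNAs. No gene was lower at an unadjusted p under 0.05 or by DESeq2 either, in both comparisons with static. Without the first low flow library, however, MT-CO3, MT-TG and MT-ND5 were called lower for low flow against static and MT-TG for high flow against static. Among all genes tested 3.25% were higher and 3.49% lower for low flow against static. The 8 were MT-TF, MT-TI, MT-TM, MT-TD and MT-TR of the H transcript and MT-TQ, MT-TC and MT-TY of the L transcript. Under high flow 9 were higher and none lower, against 7.49% higher and 6.43% lower among all genes. These were MT-TF, MT-TI, MT-TM and MT-TT, with the 12S rRNA gene MT-RNR1, of the H transcript, and MT-TC, MT-TY, MT-TE and MT-TP of the L transcript. High flow against low flow gave 1 higher gene, MT-TF, and none lower, where 0.242% of all genes were higher and 0.0919% lower. At an unadjusted p under 0.05 edgeR put 2 genes up and 2 down in that comparison, and DESeq2 called none lower. Over all genes tested 1990 of 20676 had such an unadjusted p in either direction. The counts rest on few libraries. Both comparisons with static gave fewer calls among the 37 when either static library or either high flow library was left out. All libraries share the estimate of spread. Fewer of all genes were called in the same fits, so the loss of calls was not particular to the 37. A difference between the calls under low and high flow was tested only by the comparison of high flow with low flow. Both flow groups are set against the same static libraries, so their values are given side by side and are not independent.

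MT-TF, the phenylalanine tRNA gene and the most upstream gene of the H transcript, showed a step at each flow rate. It had 97.5 and 98.6 CPM in static, 182 and 144 CPM under low flow, and 257 and 337 CPM under high flow. The 3 groups did not overlap. In CPM, groups that did not overlap were found for 20 of the 37 genes and 53.4% of all genes for low flow against static, for 22 of the 37 and 59.3% of all genes for high flow against static, and for 9 of the 37 and 42.7% of all genes for high flow against low flow. By edgeR MT-TF rose 1.67-fold under low flow against static (log2 fold change 0.74, SE 0.14, adjusted p = 0.0104) and 3.03-fold under high flow (1.60, SE 0.14, adjusted p = 3.27e-05). It was 1.82-fold higher under high flow than under low flow (log2 fold change 0.86, SE 0.14, adjusted p = 0.0149 by edgeR). The last call was kept in 9 of 14 other ways of fitting the counts, which are named in the closing section. It was lost with the replicate number as a block, with only the 4 libraries of the comparison, without either static library and without the second high flow library.

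MT-TI, which supplies isoleucine, had 32.5 and 31.7 CPM under low flow, against 15.9 and 12.8 CPM in static. It rose 2.24-fold under low flow (log2 fold change 1.17, SE 0.12, edgeR adjusted p = 5.31e-05). Under high flow it had 33.4 and 30.5 CPM, a 2.23-fold rise against static (1.16, SE 0.12, edgeR adjusted p = 1.83e-05). The 2 flow groups overlapped each other and lay wholly above static. MT-TI passed in all 14 other fits of both comparisons. Its neighbour MT-TM, the methionine tRNA that serves both initiation and elongation, had 41.4 and 33.0 CPM under low flow and 41.8 and 41.5 CPM under high flow, against 23.2 and 30.1 CPM in static. It rose by 0.48 and 0.64 on the log2 scale (SE 0.13 each; edgeR adjusted p = 0.0428 and 0.00635). Its call under low flow was kept in 6 of the 14 other fits and that under high flow in 13.

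The other called tRNAs of the H transcript passed under 1 flow rate each. MT-TD (aspartate) had 10.5 and 9.29 CPM under low flow, against 4.52 and 7.35 CPM in static, and rose 1.65-fold (edgeR adjusted p = 0.0366). MT-TR (arginine) had 6.54 and 7.21 CPM under low flow, against 3.58 and 4.74 CPM in static, and rose 1.64-fold (edgeR adjusted p = 0.0271). Under high flow neither passed, with log2 fold changes of 0.43 and 0.26. MT-TT (threonine) had 8.61 and 11.3 CPM under high flow, against 5.62 and 7.39 CPM in static, and rose 1.53-fold (edgeR adjusted p = 0.0278). The calls of MT-TD and MT-TR were kept in 8 of the 14 other fits each, and that of MT-TT in 10. MT-TL2, a leucine tRNA, had 0.551 and 0.869 CPM in static, 0.9 and 1.08 CPM under low flow, and 1.54 and 1.07 CPM under high flow, and passed in no comparison.

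MT-RNR1, the 12S rRNA of the small mitoribosomal subunit, had 3269 and 3397 CPM under high flow, against 1332 and 1839 CPM in static. It rose 2.10-fold (log2 fold change 1.07, SE 0.18, edgeR adjusted p = 0.00545) and passed in all 14 other fits. Under low flow it had 2346 and 1649 CPM, which overlapped static, and its log2 fold change was 0.33 (SE 0.18, edgeR adjusted p = 0.307). MT-RNR2, the 16S rRNA of the large subunit, had 10240 and 18000 CPM in static, 17670 and 12000 CPM under low flow, and 19360 and 17530 CPM under high flow. Its groups overlapped, with log2 fold changes of 0.07 under low flow and 0.39 under high flow (edgeR adjusted p = 0.922 and 0.437). The rRNAs lack long poly(A) tails, so their level in these libraries depends on what the selection let through, which was not tested. For comparison, 272 tested genes are typed by GENCODE as small nuclear, nucleolar, Cajal body or miscellaneous RNA. Of these, 1 rose and 12 fell under low flow against static, and 9 rose and 20 fell under high flow. Among all genes 3.25% rose and 3.49% fell under low flow, and 7.49% and 6.43% under high flow. The medians of the 272 were -0.24, -0.07 and, for high flow against low flow, 0.19 on the log2 scale. Those over all genes were 0.007, 0.002 and 0.006.

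The 8 tRNAs of the L transcript had few reads, and all 9 genes of this transcript had positive log2 fold changes against static under both flow rates. The 8 tRNAs together took 1348 and 1376 counts in the low flow libraries and 1469 and 1515 counts in the high flow libraries, against 291 and 464 counts in the static libraries. That is 0.0317% and 0.0442% of the mitochondrially encoded counts under low flow and 0.0384% and 0.0355% under high flow, against 0.0232% and 0.0190% in static. All 8 had a positive log2 fold change in both comparisons, with medians of 1.18 and 0.92, and in all 8 both flow groups lay above static in CPM, where 53.4% and 59.3% of all genes had groups that did not overlap. Of them 3 passed as higher under low flow and 4 under high flow, beside 3.25% and 7.49% of all genes. The 14 tRNAs of the H transcript had medians of 0.43 and 0.52, with 11 positive in each comparison.

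MT-TC, the cysteine tRNA, had 1.49 and 1.25 CPM under low flow and 1.33 and 1.16 CPM under high flow, against 0.607 and 0.478 CPM in static. It rose 2.54-fold under low flow (log2 fold change 1.35, SE 0.35, edgeR adjusted p = 0.03) and 2.31-fold under high flow (1.21, SE 0.36, adjusted p = 0.031). MT-TY (tyrosine), which shares 1 base with it, had 2.09 and 1.56 CPM under low flow and 1.57 and 1.31 CPM under high flow, against 0.772 and 0.522 CPM in static. It rose 2.85-fold and 2.25-fold (edgeR adjusted p = 0.0145 and 0.0307). MT-TC kept its call in 7 of the 14 other fits under low flow and in 8 under high flow, and MT-TY in 12 and 10. MT-TQ (glutamine) had 1.32 and 1.37 CPM under low flow, against 0.441 and 0.435 CPM in static, which rest on 8 and 10 counts. It rose 3.06-fold (SE 0.37 on the log2 scale, edgeR adjusted p = 0.0168), the largest rise of the 37 in this comparison, and its call was kept in 10 of the 14 other fits. Under high flow it had 0.819 and 0.713 CPM and a log2 fold change of 0.80, which did not pass (edgeR adjusted p = 0.185).

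Nearer the promoter of the L transcript, MT-TE (glutamate) had 17.9 and 11.9 CPM under high flow, against 6.12 and 9.17 CPM in static, and rose 1.92-fold (edgeR adjusted p = 0.0302). MT-TP (proline) had 9.97 and 10.4 CPM under high flow, against 6.45 and 7.52 CPM in static, and rose 1.45-fold (edgeR adjusted p = 0.0359). Both calls were kept in 10 of the 14 other fits. MT-ND6, the only mRNA of the L transcript and a membrane subunit of complex I, had 205 and 147 CPM under low flow, against 120 and 154 CPM in static, and these groups overlapped. Under high flow it had 231 and 159 CPM, above both static libraries, with a log2 fold change of 0.51 (SE 0.27, edgeR adjusted p = 0.304). MT-TA, MT-TN and MT-TS1, the tRNAs for alanine, asparagine and a serine codon family, did not pass in either comparison, with log2 fold changes of 0.63, 1.31 and 1.04 under low flow and 0.28, 0.93 and 0.90 under high flow.

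**Figure D4:**
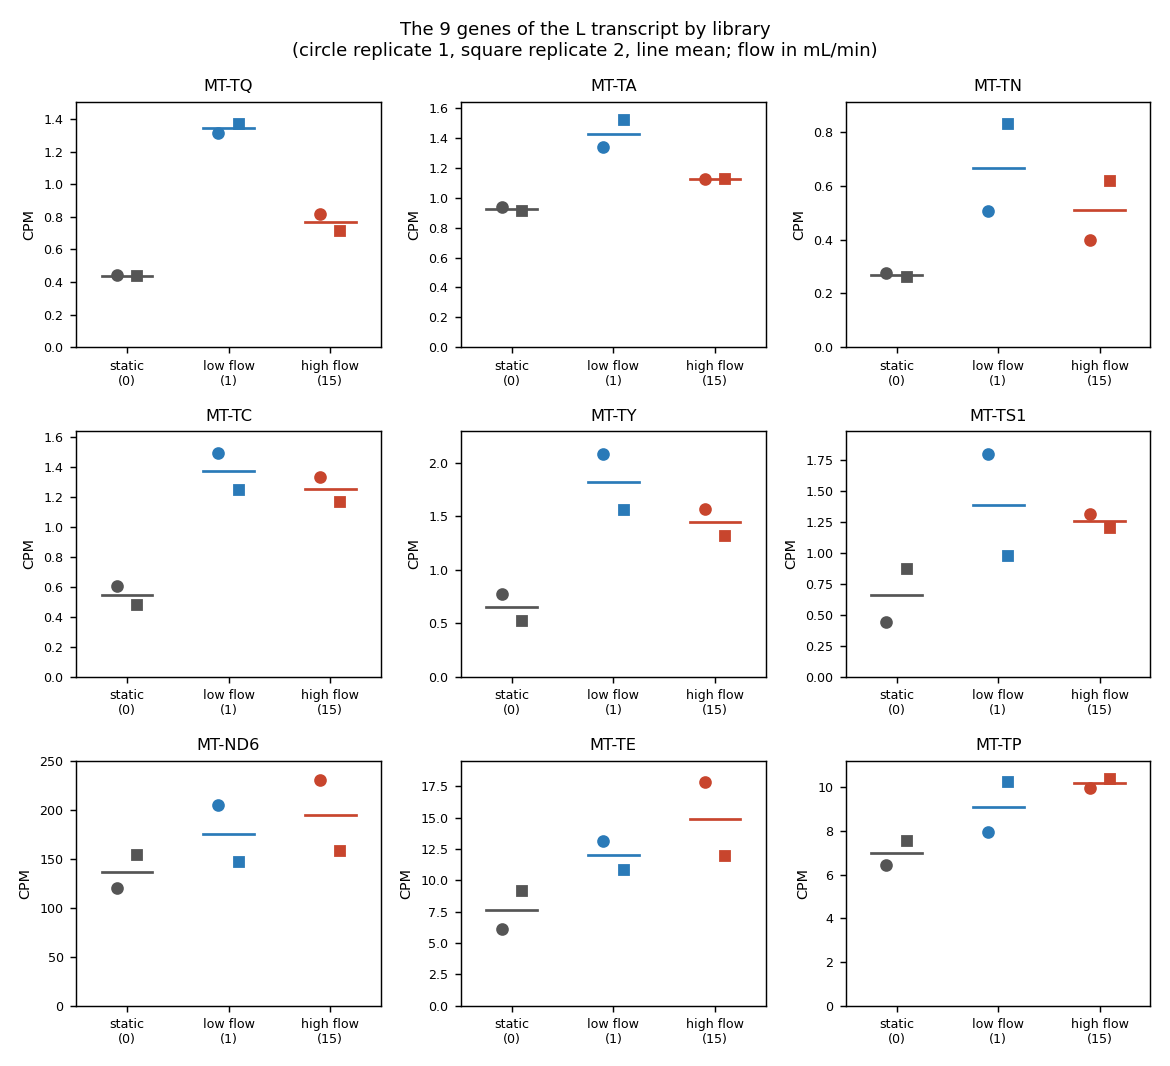
CPM of the 9 genes of the L transcript in the 6 libraries, by flow rate in mL/min, with points for libraries and lines for group means. In the 8 tRNAs both flow groups lie above both static libraries, and for MT-ND6 the low flow and static libraries overlap.

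Because most mRNAs stood high in the same library, the 37 genes were also scaled to the summed counts of these mRNAs in each library and fitted again. This scaling was added after the data were seen, and it measures a gene's level relative to the mitochondrial mRNAs, not in the cell. Relative to the mRNAs, 14 genes lay above static and 1 below under low flow, with 3.35% higher and 3.58% lower among all genes in that fit. Under high flow 15 were higher and 2 lower against static, beside 7.58% and 6.52%. High flow against low flow gave 2 higher, MT-RNR1 and MT-TV, and none lower, beside 0.247% higher and 0.0919% lower among all genes. The count for low flow against static fell without the second static library and without the second low flow library. That for high flow against static fell without the second static library and when either high flow library was left out. High flow against low flow gave fewer calls without the second high flow library and more without the first low flow library. In each of these fits the count over all genes moved the same way.

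On this scale the first 4 genes of the H transcript, MT-TF, MT-RNR1, MT-TV and MT-RNR2, separated all 3 groups. So did MT-TQ, MT-TC, MT-TY, MT-TD, MT-TR, MT-ND4L and MT-ND5, but with static or low flow highest. Groups that did not overlap were common among the 37 genes on this scale. Low flow lay apart from static for 30 of the 37 genes and high flow for 31, while the flow groups lay apart from each other for 13. With every gene tested scaled in this way, the groups lay apart for 3630, 6784 and 2814 of 20676 genes in the same order. As a percent of the mRNA counts, MT-TF stood at 0.171 and 0.115 in static, 0.252 and 0.287 under low flow, and 0.391 and 0.582 under high flow. MT-RNR1 stood at 2.34 and 2.15 in static, 3.24 and 3.28 under low flow, and 4.97 and 5.86 under high flow. MT-TV, the valine tRNA that lies between the rRNAs and is also a structural part of the mitoribosome, stood at 0.150 and 0.185 in static, 0.249 and 0.278 under low flow, and 0.397 and 0.503 under high flow. In each of these 3 genes static was lowest and high flow highest.

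For the next 3 genes, MT-RNR2, MT-TL1 and MT-ND1, the fold differences were smaller, although MT-TI, MT-TM and MT-TS2, which lie farther on, had larger ones again. MT-RNR2 stood at 18.0 and 21.0 percent of the mRNA counts in static, 24.4 and 23.8 under low flow, and 29.5 and 30.2 under high flow. MT-TL1, the leucine tRNA that follows it, stood at 0.399 and 0.390 in static, 0.511 and 0.491 under low flow, and 0.510 and 0.603 under high flow, where the flow groups overlapped. MT-ND1, the first mRNA, stood between 7.45 and 8.52 in the 4 flow libraries, against 6.70 and 7.40 in static.

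**Figure D5:**
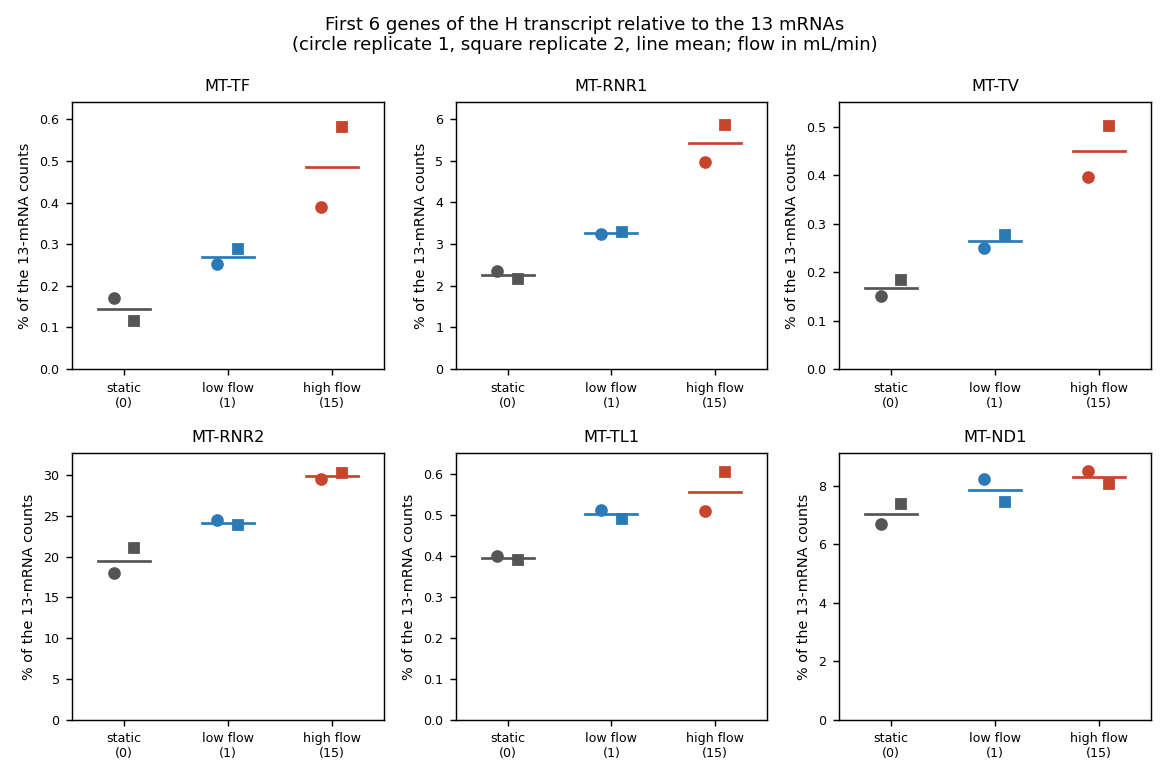
Counts of the first 6 genes of the H transcript as a percent of the counts in the 13 mRNAs, for each of the 6 libraries by flow rate in mL/min, with lines at the group means. The 3 groups are apart for MT-TF, MT-RNR1, MT-TV and MT-RNR2, and the 2 flow groups overlap for MT-TL1 and MT-ND1.

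The log2 fold changes relative to the mRNAs, high flow against static, were 1.77 for MT-TF (edgeR adjusted p = 0.0267), 1.27 for MT-RNR1 (2.19e-06), 1.42 for MT-TV (1.41e-05), 0.61 for MT-RNR2 (0.00198), 0.50 for MT-TL1 (0.00459) and 0.24 for MT-ND1 (0.147). For low flow against static in the same order they were 0.92, 0.54, 0.65, 0.31, 0.35 and 0.16, of which MT-RNR1, MT-TV and MT-TL1 passed (edgeR adjusted p = 0.00794, 0.00985 and 0.0476). In that comparison MT-RNR1 was lost without the second static library, MT-TV without the first, and MT-TL1 whichever library was left out. For high flow against static, MT-TF was lost without the second static library and without either low flow library. MT-TL1 was lost there without the second static library and without the second high flow library. Between high flow and low flow MT-RNR1 was 1.66-fold higher (edgeR adjusted p = 0.0032) and MT-TV 1.71-fold higher (0.0119), while MT-TF, at 1.80-fold, did not pass on this scale (0.467). The count of MT-TF was 0.0536 to 0.0993 of the count of MT-RNR1 in the 6 libraries, beside a length ratio of 0.0744, and that of MT-TV was 0.0642 to 0.0860, beside 0.0723. Per base, both tRNAs therefore had about the read density of MT-RNR1, while MT-TV averaged 1765 CPM per kilobase in static and MT-RNR2, its other neighbour, 9058. MT-RNR1 made up 14.5% and 16.2% of the rRNA counts under high flow and 11.7% and 12.1% under low flow, against 11.5% and 9.27% in static.

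Past the rRNA segment, 2 mRNAs were higher relative to the others. MT-ND6 held 0.283% and 0.292% of the mRNA counts under low flow and 0.351% and 0.273% under high flow, against 0.211% and 0.180% in static (log2 fold changes 0.56 and 0.68, edgeR adjusted p = 0.0111 and 0.00181). MT-ND3, a small complex I subunit, held 1.58% and 1.80% under low flow and 1.76% and 1.48% under high flow, against 1.37% and 1.03% in static (0.49 and 0.44, edgeR adjusted p = 0.0415 and 0.0443). Their groups did not overlap between either flow rate and static. Both genes were lost in both comparisons without the second static library, and under high flow without the first high flow library. MT-ND3 was also lost under high flow without the second high flow library, and under low flow without the second low flow library or either high flow library. MT-TG, the glycine tRNA that lies just before MT-ND3, was lower relative to the mRNAs in both comparisons. It stood at 0.0250% and 0.0172% of the mRNA counts under low flow and 0.0206% and 0.0188% under high flow, against 0.0369% and 0.0412% in static (log2 fold changes -0.89 and -0.99, edgeR adjusted p = 0.00497 and 0.00099). The call of MT-TG under low flow was lost without the second static library. MT-TH (histidine) was lower under high flow by the same measure (log2 fold change -0.65, edgeR adjusted p = 0.0384), a call lost without either static library and without the second high flow library.

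Relative to the mRNAs, MT-TM, MT-TC, MT-TY, MT-TD, MT-TS1, MT-TS2 and MT-TE were higher under both flow rates, MT-TQ and MT-TR under low flow, and MT-TT under high flow. Among these, MT-TS2, a serine tRNA of the H transcript, had 3.64 and 2.70 CPM under low flow and 5.69 and 3.06 CPM under high flow, against 1.10 and 2.61 CPM in static, with log2 fold changes of 1.00 and 1.42 relative to the mRNAs. MT-TI, called in CPM, did not pass on this scale, with log2 fold changes of 1.37 and 1.32 (edgeR adjusted p = 0.101 and 0.0793). MT-TW (tryptophan) and MT-TK (lysine) did not pass on either scale in any comparison. MT-TK had 16.2 and 22.9 CPM in static, 22.9 and 24.2 CPM under low flow, and 20.6 and 20.8 CPM under high flow.

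Nuclear copies of mitochondrial DNA can take reads from the genes they resemble. The table holds 408 rows named as such copies, of which 110 had any count and 10 were tested. They took 0.0599% to 0.178% of all counts in a library. The most abundant, MTATP6P1, had 836 and 1712 CPM in static, 1112 and 521 CPM under low flow, and 1114 and 748 CPM under high flow, or 0.0752 to 0.149 of the MT-ATP6 count. By edgeR none of the 10 passed under low flow, with 1 higher at an unadjusted p under 0.05 and none by DESeq2, and 2 passed under high flow against static: MTATP8P1 was lower and MTND1P23 was higher, with log2 fold changes of -2.13 and 1.91 (edgeR adjusted p = 0.00648 and 0.00427). Both also passed for high flow against low flow, with log2 fold changes of -2.09 and 1.81 (edgeR adjusted p = 0.0488 and 0.0196). No copy of MT-RNR1 was among the 10. The names searched covered copies of the mRNAs and rRNAs only, so copies of the tRNAs were not looked for.

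The nuclear partners of these genes were described from lists of respiratory chain subunits and of factors that transcribe, process and translate mitochondrial RNA. Of 72 tested nuclear subunits of complexes I, III, IV and V, 6 were lower and none was higher in each comparison with static by edgeR. Among all genes tested 3.49% were lower and 3.25% higher under low flow, and 6.43% lower and 7.49% higher under high flow, which is also the background for the lists that follow. At an unadjusted p under 0.05 none was higher, 18 were lower under low flow and 14 under high flow, and DESeq2 called 6 and 7 lower and none higher. Over all 20676 genes tested, 4853 and 6074 had such an unadjusted p in either direction by edgeR. The list had median log2 fold changes of -0.11 under low flow and -0.09 under high flow. UQCRB, a small subunit of complex III, had 81.7 ± 10.9 CPM under low flow and 84.3 ± 8.84 CPM under high flow, against 118 ± 6.51 CPM in static (SD, n = 2 each; edgeR adjusted p = 0.0109 and 0.00869). UQCR10, NDUFS5 and NDUFA12 were also lower under both, by 0.48, 0.34 and 0.40 on the log2 scale under low flow and by 0.37, 0.34 and 0.44 under high flow. NDUFS6 and ATP5MC2 passed as lower under low flow, and NDUFA5 and COX7B under high flow. None of the 72 passed for high flow against low flow by edgeR or DESeq2, and 1 was lower at an unadjusted p under 0.05.

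Complex II is wholly nuclear encoded, and 4 of 4 subunits were tested. Its iron-sulphur subunit SDHB was lower under both flow rates, with 50.0 ± 3.02 CPM under low flow and 53.7 ± 1.83 CPM under high flow, against 69.7 ± 6.36 CPM in static (SD, n = 2 each; edgeR adjusted p = 0.0116 and 0.0208). The membrane anchor SDHC was higher under low flow (log2 fold change 0.38, edgeR adjusted p = 0.0464).

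Among 24 genes of mitochondrial transcription and DNA replication, TK2, which makes deoxynucleotides inside mitochondria, was higher and DNA2, a nuclease and helicase, was lower under both flow rates. TK2 had 133 ± 12.2 CPM under low flow and 130 ± 1.39 CPM under high flow, against 102 ± 5.90 CPM in static (SD, n = 2 each; edgeR adjusted p = 0.0284 and 0.0294). Of 25 tested genes of mitochondrial RNA processing and stability, 1 was lower under low flow and 3 under high flow, and none was higher by edgeR or DESeq2, with 1 higher under high flow at an unadjusted p under 0.05. SLIRP, which stabilises mitochondrial mRNAs together with LRPPRC, had 53.1 ± 7.13 CPM under low flow and 55.2 ± 3.00 CPM under high flow, against 73.4 ± 2.73 CPM in static (SD, n = 2 each; edgeR adjusted p = 0.0159 and 0.0167). PNPT1, the polynucleotide phosphorylase of the mitochondrial RNA degradosome, had 44.4 ± 3.47 CPM under high flow, against 63.6 ± 1.91 CPM in static (SD, n = 2 each; edgeR adjusted p = 0.00518). TRNT1, which adds the CCA end to tRNAs, fell by 0.45 on the log2 scale under high flow (edgeR adjusted p = 0.0206).

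The remaining lists held few calls. Of 26 genes that modify mitochondrial tRNAs and rRNAs none passed under low flow by edgeR or DESeq2, where 2 were higher and 4 lower at an unadjusted p under 0.05, and RPUSD4 was higher and MTO1 lower under high flow (log2 fold changes 0.36 and -0.36). Of 22 aminoacyl-tRNA synthetases only GARS1, which also serves the cytosol, passed, lower by 0.49 and 0.57 on the log2 scale (edgeR adjusted p = 0.0149 and 0.00316). Of 17 translation factors C12orf65 passed, lower under both flow rates. Among 15 regulators of mitochondrial biogenesis PPARGC1B and GABPB1 were lower under both flow rates, and MYC was lower under low flow than in static and 1.65-fold higher under high flow than under low flow (edgeR adjusted p = 0.00427). Medians of all 11 lists lay between -0.20 and 0.03 on the log2 scale in the comparisons with static. The lists were compared with no other set of genes.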

How the data were processed

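The authors deposited raw counts, whole numbers of reads per gene for 60591 gene symbols and 6 libraries. STAR, featureCounts and hg38 appear, with no versions, per the submitters' processing notes, and the gene annotation is not stated there. Each column was matched to its sample by the column name in the labels, and no row lacked a gene name. The members and gene lists were chosen with earlier results of these data known.

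All genes were fitted with edgeR 4.0.16 (limma 3.58.1, R 4.3.3): TMM normalization, a filter on low counts with a minimum of 10, robust quasi-likelihood dispersions and 1 joint fit of the 6 libraries, which leaves 3 residual degrees of freedom. The filter kept 20676 genes, among them all 37 mitochondrially encoded ones. Tests were two-sided, with Benjamini-Hochberg adjustment over all genes of a comparison and a threshold of 0.05. CPM values were made here from the deposited counts, using library sizes corrected by TMM. Relative levels replaced these factors, for the 37 genes, by the summed counts of the 13 mRNAs, and were refitted. Shares of counts were compared by an exact permutation test over libraries. DESeq2 1.42.0, other normalizations, no filter, offsets for length and GC content, a replicate block and leaving out each library were tried. The fits were tested on simulated counts. Gene positions and sequences came from GENCODE 29. All 37 members were named whatever their p, and of each gene list up to 4 called genes per comparison, by p.

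Libraries with the same replicate number did not deviate together: the correlation of their deviations from the group means was -0.144 between static and low flow, -0.0514 between static and high flow and 0.138 between low flow and high flow. The 2 libraries of a group differed beyond counting error.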

Additional observations from a re-analysis of the deposited data

Results flagged for a closer look

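MT-TF, the first gene of the H transcript, was the 1 mitochondrially encoded gene called between the flow rates, with a log2 fold change of 0.863 for high flow against low flow (edgeR adjusted p = 0.0149). It was marked because the effect of flow against static differed between high and low flow by that test. The high flow libraries had 257 and 337 CPM and the low flow libraries 182 and 144 CPM. The adjusted p ranged from 6.31e-14 to 0.154 over the other fits, in which the log2 fold change lay between 0.65 and 1.05. Relative to the 13 mRNAs it did not pass (edgeR adjusted p = 0.467). By their column names the high flow libraries differ from the rest in lane label, sample numbers and name ending. A lane, run or processing difference therefore cannot be told apart from the flow rate.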

How the results depend on the processing

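Under RLE and upper quartile normalization, and with library sizes and TMM taken without the 37 genes, the counts of called genes were the same in all 3 comparisons. Low flow against static gave 8 calls, 13 with no filter on low counts, 4 with only the 4 libraries compared, 6 by DESeq2 and 2 to 12 when 1 library was left out. High flow against static gave 9 calls, 12 without the filter, 9 by DESeq2 and 3 to 10 when 1 library was left out. High flow against low flow gave 1 call, 2 without the filter and 0 to 2 when 1 library was left out. Relative to the 13 mRNAs, 15 calls for low flow against static became 1 to 19, 17 for high flow against static became 7 to 18, and 2 for high flow against low flow became 0 to 4 when 1 library was left out. MT-ND3 and MT-ND6 were called without the filter in both comparisons with static, both higher. Without the first low flow library MT-CO3, MT-TG and MT-ND5 were called lower for low flow against static, and MT-TG for high flow against static.

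With 1 library left out, up to 9 of the 37 log2 fold changes changed sign for low flow against static, up to 8 for high flow against static and up to 11 for high flow against low flow, and up to 8, 7 and 9 of these were mRNAs. Among the first 6 genes of the H transcript these were, for low flow against static, MT-RNR2 (-0.28 to 0.54), MT-TL1 (-0.18 to 0.45) and MT-ND1 (-0.44 to 0.35), and for high flow against static MT-ND1 (-0.30 to 0.44). MT-ND1 also changed sign for low flow against static with offsets for length and GC content (0.034). The median of the 13 mRNAs lay between -0.44 and 0.10 for low flow against static and between -0.45 and 0.10 for high flow against static when 1 library was left out, and it was positive without the second static library in both and, at 0.02, without the second low flow library for low flow against static. The causes were not tested.

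The labels number the replicates alike in each group, but the deviations give no ground to treat the numbers as pairs. With a replicate block, 6 genes were called for low flow against static, 9 for high flow against static and 0 for high flow against low flow. Over all 20676 genes the block gave 411 higher and 496 lower, 1252 and 1014, and 42 and 13 in the same order. With the numbers of the static libraries exchanged in that block, which was tried after seeing the data, low flow against static gave 16 calls, 11 higher and 5 lower. Over all genes that fit called 1079 higher and 1150 lower. MT-TQ and the other low tRNAs of the L transcript rest on few reads (8 and 10 counts for MT-TQ in the static libraries), which limits their precision.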
